A study of Caenorhabditis elegans with 50 samples.

Results

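The contribution of the FOXO transcription factor gene daf-16 to messenger RNA levels was compared between 2 long-lived backgrounds of the nematode Caenorhabditis elegans, one with a mutated insulin/IGF-1 receptor and one without a germline. The receptor background consisted of daf-2(e1370) and of its doubles with daf-16(mg54) and daf-16(mu86), and the germline background of glp-1(e2141) and of its doubles with the same alleles. With 5 libraries for each of these 6 strains, 30 of the 50 libraries of the study entered the comparison, 15 in each background. The labels call the 5 samples of a strain biological samples, list both single mutants as long lived and list all double mutants as suppressed for longevity. RNA was poly(A)-selected from whole animals at young adulthood and sequenced as paired ends of 100 cycles. The daf-2(e1370) strains spent the first 72 hours at 15 °C and were then kept at 20 °C, with the single mutant laid 6 hours ahead of controls. The glp-1 strains were kept at 25 °C for 48 hours, the treatment that removes their germline. Temperature, germline and receptor genotype therefore differed together between the backgrounds and cannot be told apart, while both sides of the comparison stay within a background and share no library. Within the receptor background the 6 hour lead is listed for the single mutant and not for its doubles. The daf-16 effect there cannot be told apart from that lead, and this carries over to the comparison.

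DAF-2 signalling through the AKT kinases keeps DAF-16 out of the nucleus, and a weakened receptor allows DAF-16 to enter it and to act on genes of stress defence, metabolism and immunity. In animals that lose their germline stem cells, DAF-16 becomes nuclear mainly in the intestine, where it acts together with TCER-1, KRI-1 and steroid signalling through DAF-12, and where lipolysis and fatty acid desaturation are known to matter for lifespan. glp-1 encodes a Notch receptor that maintains those stem cells. Of the daf-16 alleles, mg54 is a nonsense mutation and mu86 a large deletion.

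The daf-16 effect was defined on the log2 scale as the level in a single mutant minus the mean level of its doubles, so that a positive value means more mRNA where daf-16 is intact. The daf-16 effect in daf-2(e1370) minus the daf-16 effect in glp-1 is called the difference. Values beside levels are standard deviations (SD) of levels in CPM (counts scaled to library size) over 5 libraries, values beside effects and differences are standard errors (SE), and every adjusted p is from edgeR's quasi-likelihood test with Benjamini-Hochberg adjustment over all entries tested. An effect, or a difference, passed when its adjusted p was under 0.05.

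Library depth ran from 21020067 to 31374447 fragments in the daf-2(e1370) strains, apart from daf-2(e1370) replicate 2 with 2367909, and from 13822805 to 23811780 in the glp-1 strains. Summed over 26 germline and oocyte markers, the strain means were 12347 to 15101 CPM in the daf-2(e1370) strains and 25 to 36 CPM in the glp-1 strains. Other libraries than the shallow one stood apart from their strains. The daf-2(e1370) doubles had low sperm transcripts in replicates 0 and 1, which held 351 to 1044 CPM of 83 sperm genes, against 2562 to 3647 CPM in their other replicates, and lay together on the first axis of the variation within strains. Replicates 0 and 1 of daf-2(e1370) itself were also its lowest, at 1950 and 1738 CPM against 2549 to 4039 CPM, and lay lowest of that strain on that axis. Settings without the 4 low-sperm doubles keep those single-mutant libraries. In the glp-1 background, glp-1(e2141) replicate 0, daf-16(mg54);glp-1(e2141) replicate 2 and daf-16(mu86);glp-1(e2141) replicate 3 lay far from their strains on that axis. Whole animals were sequenced, so less RNA per cell and fewer cells of a type cannot be told apart. daf-16 mRNA itself stood at 179 to 289 CPM in daf-2(e1370), 93.9 to 118 CPM in its mg54 double and 158 to 210 CPM in its mu86 double. In the germline background it stood at 132 to 229, 112 to 216 and 352 to 466 CPM in the same order. Its total was thus below the single mutant in the mg54 double of daf-2(e1370) and above it in the mu86 double of glp-1, with a difference of 0.97 ± 0.19 (adjusted p = 0.00147) that did not pass with the mg54 doubles alone (0.65, adjusted p = 0.121). A total over the gene is no check of the mu86 label, since reads from outside the deletion still count.

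The daf-16 effect passed for many more entries in daf-2(e1370) than in glp-1. Of 9626 gene entries measured in both backgrounds, 2421 (25.2%) passed for the effect in daf-2(e1370), 1210 higher (12.6%) and 1211 lower (12.6%). In glp-1, 573 (5.95%) passed, 290 higher (3.01%) and 283 lower (2.94%), and 351 without glp-1(e2141) replicate 0. Both effects passed for 380 entries, which is 15.7% of the first list and 66.3% of the second. Among these 380 the direction was the same for 374, with 232 higher and 142 lower in both single mutants. The split in daf-2(e1370) depends on scaling and on a few libraries. With median-ratio size factors (RLE) 32.1% of the calls were higher, with DESeq2 31.1%, and the median effect over all entries moved from -0.06 to -0.18. Without the 4 low-sperm doubles 33.8% were higher, and in glp-1, where 50.6% of the calls were higher, the share was then 64.8%. Without the shallow daf-2(e1370) replicate 2 the shares moved the other way, to 62.9% in daf-2(e1370) and 33.3% in glp-1. The counts in daf-2(e1370) and glp-1 were 3334 and 1397 with limma-voom, and 2601 and 1287 without all 8 libraries that stood apart. In a fit of all 50 libraries they were 2999 and 910, beside 596 for daf-2(e1368), which carries another receptor allele.

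The difference itself passed for 574 entries (5.96%), 377 with a more positive effect in daf-2(e1370) (3.92%) and 197 with a more negative one (2.05%). In 533 of the 574 the effect in daf-2(e1370) was the larger in size, and in 41 the effect in glp-1. The e1370 effect alone passed for 428 of the 574, of which 270 were higher and 158 lower. For 79 both effects passed as raised and the e1370 effect was the larger, and for 17 both passed as lowered, again more in daf-2(e1370). A single entry, which names akt-1 and nhr-232 together, was raised in both and more so in glp-1, with effects of 0.43 ± 0.11 and 0.98 ± 0.11 and a difference of -0.55 ± 0.16 (adjusted p = 0.0334). It was named after its values were seen. The glp-1 effect alone passed for 30, with 9 higher and 21 lower, and neither effect alone for 13.

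The balance of directions among the differences depended on scaling and on a few libraries. Of the 574, 65.7% were more positive in daf-2(e1370). That share was 47.8% with RLE size factors, 46.3% with DESeq2, 51.1% with limma-voom, 77.9% without the shallow daf-2(e1370) replicate 2 and 28.9% without the 4 low-sperm doubles, where 606 of 852 differences were negative.

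**Figure D1:**
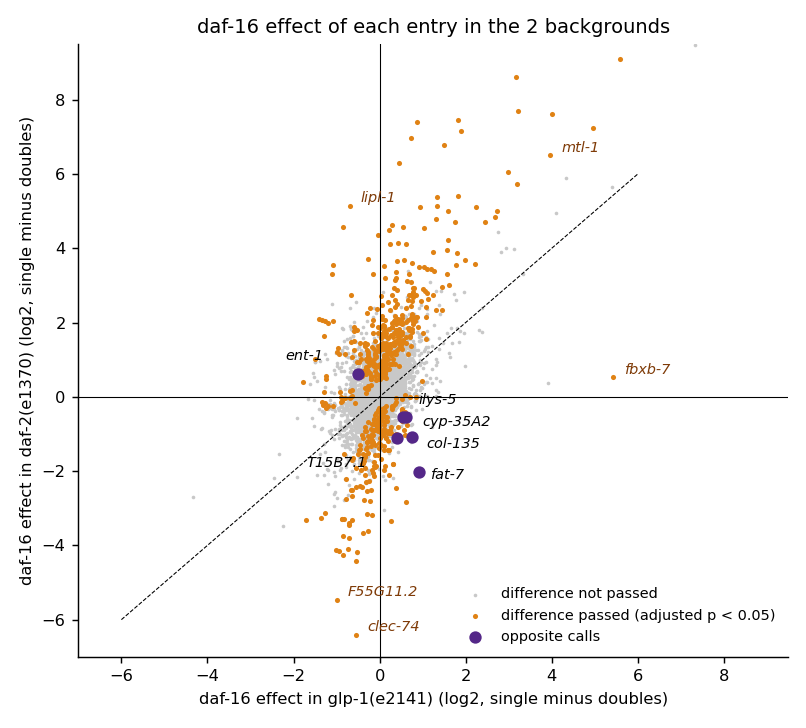
Each point is 1 of 9626 entries, with the daf-16 effect in glp-1(e2141) on the horizontal axis and in daf-2(e1370) on the vertical axis (log2, with positive values where the single mutant is above its doubles), and the dashed line marks equal effects. Orange points passed the test of the difference and purple points are the 6 opposite calls, which sit near the centre, while the orange points spread mostly along the vertical axis; 4 points lie outside the axes.

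Opposite signs were common among estimates and rare among calls. The estimates had opposite signs in 199 of the 574 entries with a difference (34.7%), against 3267 of all 9626 entries (33.9%). The effect in daf-2(e1370) was the positive one in 119 of the 199 and the negative one in 80. In 164 of them the e1370 effect alone passed, in 16 the glp-1 effect alone and in 13 neither. The remaining 6 entries, 0.0623% of those tested, passed for both effects and for the difference. Each of the 6 names 1 gene. fat-7, T15B7.1, col-135, ilys-5 and cyp-35A2 were lower in daf-2(e1370) than the mean of its doubles. In glp-1 they were higher than the mean of its doubles, and ent-1 was the reverse in both backgrounds. Without replicate 2 of daf-16(mg54);glp-1(e2141) 10 entries met the same conditions, and likewise 10 without replicate 3 of daf-16(mu86);glp-1(e2141), 13 without all 3 glp-1 strain libraries that stood apart and 25 without all 8 libraries that stood apart.

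fat-7 encodes a delta-9 stearoyl-CoA desaturase, which makes oleic acid from stearic acid, and lies at V:7151428-7153112 (ce10). In daf-2(e1370) its 5 libraries, in replicate order, stood at 38.6, 31.6, 46.6, 70.7 and 54.7 CPM. The mg54 double stood at 146, 171, 169, 198 and 230 CPM and the mu86 double at 163, 161, 218, 271 and 261 CPM. Every library of the single mutant was thus below every library of the doubles, and the effect was -2.03 ± 0.23 (adjusted p = 8.58e-08). glp-1(e2141) stood at 36.9, 99.6, 105, 62.1 and 96.5 CPM, its mg54 double at 28, 30.3, 14.9, 30.3 and 20.3 CPM and its mu86 double at 94, 76.2, 66, 61.7 and 65.9 CPM. Here the single mutant lay above the mg54 double and overlapped the mu86 double. The glp-1 effect of 0.91 ± 0.21 (adjusted p = 0.00536) came from mg54, at 1.69, while against mu86 it was 0.14 (adjusted p = 0.926). The difference was -2.94 ± 0.31 (adjusted p = 1.22e-07).

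The close paralog fat-6, with the same desaturase activity, did not move in this way. Its levels were 640 CPM in daf-2(e1370) and 582 and 570 CPM in the doubles, and 1361 CPM in glp-1(e2141) against 1215 and 1114 CPM. Neither its e1370 effect of 0.15 ± 0.10 (adjusted p = 0.283) nor its glp-1 effect of 0.23 ± 0.10 (adjusted p = 0.248) passed, and its difference was -0.07 ± 0.15 (adjusted p = 0.849). How the authors' counting divided reads between near-identical stretches of fat-6 and fat-7 cannot be read from the sources used here. The palmitoyl-CoA desaturase gene fat-5 was raised in both, by 0.86 ± 0.25 in daf-2(e1370) (adjusted p = 0.0116) and 0.94 ± 0.25 in glp-1 (adjusted p = 0.0187), with a difference of -0.08 ± 0.36 (adjusted p = 0.942). The e1370 call was lost with the mg54 doubles alone (0.69, adjusted p = 0.107) and without the 4 low-sperm doubles (0.79, adjusted p = 0.0618). The glp-1 call was lost with either allele alone and without glp-1(e2141) replicate 0 (0.75, adjusted p = 0.125), 1 (0.86, adjusted p = 0.0532) or 4 (0.82, adjusted p = 0.0829).

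T15B7.1 (V:6840269-6846659) stood at 47.3, 46.4, 38.3, 58.5 and 46.3 CPM in daf-2(e1370). Its mg54 double held 91.2, 110, 110, 111 and 104 CPM and its mu86 double 97.5, 97.6, 101, 102 and 97.5 CPM. All 5 single-mutant libraries were below all 10 doubles, with an effect of -1.10 ± 0.11 (adjusted p = 5.74e-09). In glp-1(e2141) the gene was at 299, 321, 267, 303 and 267 CPM. Its mg54 double held 188, 206, 250, 190 and 185 CPM, and its mu86 double 191, 231, 235, 337 and 209 CPM. The single mutant overlapped the doubles through the mu86 library at 337 CPM, which is replicate 3, one of the 3 that stood apart. The glp-1 effect was 0.40 ± 0.10 (adjusted p = 0.0156) and 0.50 without those 3 libraries; against mu86 alone it was 0.28 (adjusted p = 0.266). The difference was -1.50 ± 0.15 (adjusted p = 4.72e-08).

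ilys-5 encodes an invertebrate-type lysozyme, an enzyme that digests bacterial cell walls, and lies at X:6533512-6536740. It was abundant in every strain. daf-2(e1370) held 611, 796, 463, 635 and 764 CPM, its mg54 double 877, 941, 840, 945 and 1103 CPM and its mu86 double 962, 962, 864, 954 and 1051 CPM. The groups did not overlap, and the effect was -0.54 ± 0.11 (adjusted p = 0.000627). glp-1(e2141) held 1798, 1773, 1533, 1513 and 1603 CPM, its mg54 double 996, 1084, 1400, 1053 and 1037 CPM and its mu86 double 1078, 1086, 1093, 1520 and 983 CPM. Of the 10 doubles, 1 reached the range of the single mutant, again replicate 3 of the mu86 double. The glp-1 effect was 0.54 ± 0.11 (adjusted p = 0.00187) and the difference -1.07 ± 0.16 (adjusted p = 2.24e-05).

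col-135, a cuticle collagen gene at IV:15129599-15131780, differed between the daf-16 alleles. In daf-2(e1370) it stood at 10.4, 11.2, 6.31, 9.33 and 12.8 CPM, in the mg54 double at 10.2, 5.78, 8.26, 13.2 and 15.9 CPM and in the mu86 double at 59.2, 47.2, 36.8, 34.5 and 47.7 CPM. The single mutant was below every mu86 library and intermingled with the mg54 libraries. The e1370 effect of -1.08 ± 0.18 (adjusted p = 4.95e-05) was -2.12 against mu86 and -0.04 against mg54 (adjusted p = 0.916). glp-1(e2141) held 147, 146, 204, 138 and 137 CPM, its mg54 double 86.1, 114, 99, 119 and 126 CPM and its mu86 double 93.9, 75.2, 74.7, 77.6 and 68.4 CPM, with no overlap between the single mutant and the doubles. The glp-1 effect was 0.74 ± 0.16 (adjusted p = 0.0043), and 0.50 (adjusted p = 0.166) against mg54 alone. The difference was -1.82 ± 0.25 (adjusted p = 6.95e-06), but -0.54 (adjusted p = 0.39) with the mg54 doubles alone.

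cyp-35A2, a cytochrome P450 gene of the class that oxidises foreign compounds and lipids (V:7362293-7364309), was the least firm of the 6. It stood at 223, 195, 121, 143 and 163 CPM in daf-2(e1370), at 227, 215, 263, 254 and 258 CPM in the mg54 double and at 266, 238, 224, 244 and 267 CPM in the mu86 double. In glp-1(e2141) it stood at 439, 744, 609, 426 and 674 CPM, in the mg54 double at 284, 481, 492, 335 and 252 CPM and in the mu86 double at 292, 291, 397, 636 and 322 CPM. Single mutants and doubles overlapped in both backgrounds. The effects were -0.53 ± 0.18 (adjusted p = 0.0313) and 0.61 ± 0.17 (adjusted p = 0.0315), with a difference of -1.15 ± 0.25 (adjusted p = 0.00437). Without the shallow daf-2(e1370) replicate 2 the e1370 effect was -0.38 and no longer passed (adjusted p = 0.183), and leaving out daf-2(e1370) replicate 3 or 4 also ended that call (adjusted p = 0.0943 and 0.0648). The glp-1 call was lost without glp-1(e2141) replicate 1, 2 or 4, without mg54 double replicate 0, 3 or 4 and without mu86 double replicate 0, 1 or 4, at effects of 0.51 to 0.60. The difference passed in each of these cases.

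ent-1, an equilibrative nucleoside transporter gene at IV:11652370-11655454, was the only opposite call that was higher in daf-2(e1370). There it stood at 160, 167, 244, 178 and 187 CPM, against 142, 140, 106, 115 and 128 CPM in the mg54 double and 130, 136, 98.8, 111 and 113 CPM in the mu86 double. glp-1(e2141) held 26.2, 32.6, 26.7, 29.9 and 23.3 CPM, its mg54 double 44.3, 43.5, 38.8, 35.9 and 35.4 CPM and its mu86 double 38.3, 42.5, 42.2, 37.8 and 36.7 CPM. The groups did not overlap in either background. The effects were 0.62 ± 0.10 (adjusted p = 2.38e-05) and -0.51 ± 0.10 (adjusted p = 0.00232), and the difference was 1.13 ± 0.15 (adjusted p = 4.18e-06). Levels in the glp-1 strains were well below those in the daf-2(e1370) strains throughout.

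**Figure D2:**
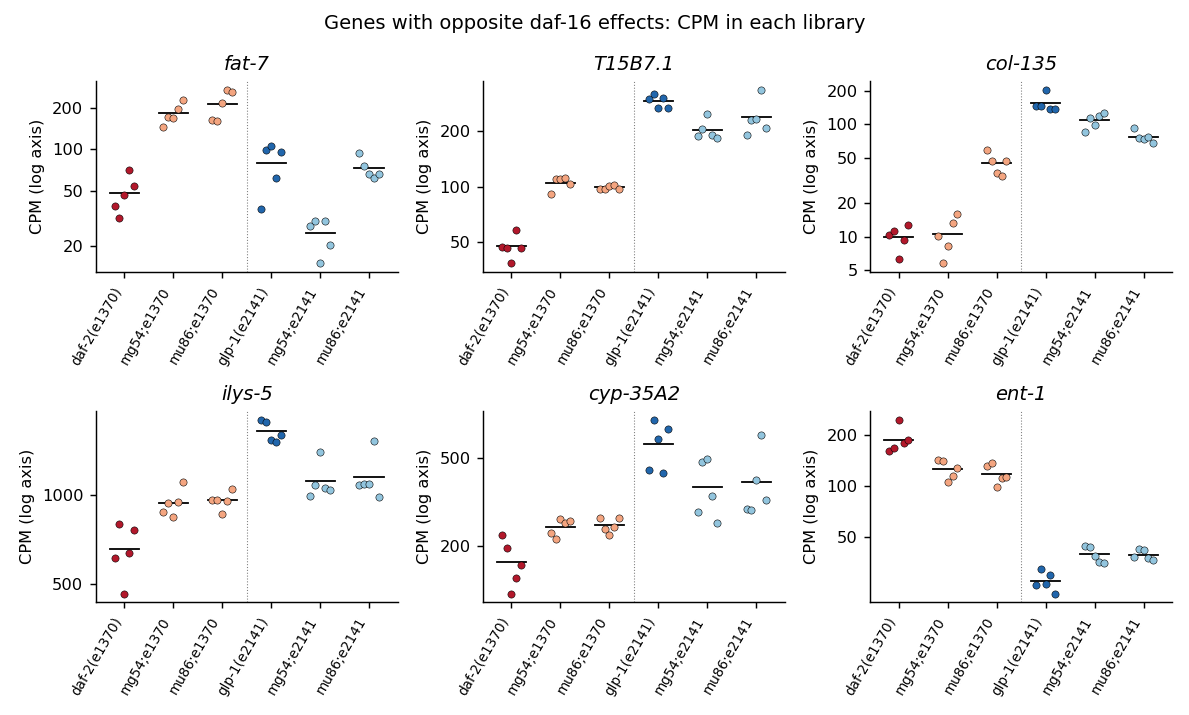
CPM on a log axis in each of the 30 libraries for the 6 genes with opposite calls, by strain, with points for libraries and bars for strain means; the dotted line divides the daf-2(e1370) strains from the glp-1 strains. ent-1 is highest in daf-2(e1370) at 160 to 244 CPM and lowest in glp-1(e2141) at 23.3 to 32.6 CPM. The other 5 genes are low in daf-2(e1370) and high in glp-1(e2141) relative to the mean of their doubles. col-135 in daf-2(e1370) intermingles with its mg54 double, and fat-7 in glp-1(e2141) overlaps its mu86 double. T15B7.1 and ilys-5 overlap the doubles in the glp-1 strains through a mu86 library, and cyp-35A2 overlaps them in both backgrounds.

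All 6 stayed opposite calls with RLE size factors, with DESeq2 and with limma-voom, without the 4 low-sperm doubles and without the 3 glp-1 strain libraries that stood apart. The other insulin receptor allele of the study, e1368, with its own mg54 and mu86 doubles, was fitted with all 50 libraries for the same 9626 entries. In that fit 2999 entries passed in daf-2(e1370) and 910 in glp-1. The daf-16 effect in daf-2(e1368) passed for 596 (6.19%), 289 higher (3.00%) and 307 lower (3.19%). Of the 6 genes, 3 passed there, each in the direction seen in daf-2(e1370): fat-7 at -1.12 ± 0.19 (adjusted p = 2.22e-05), T15B7.1 at -0.32 ± 0.09 (adjusted p = 0.0247) and ent-1 at 0.43 ± 0.09 (adjusted p = 0.000749). The other 3 did not pass, with 0.11 ± 0.10 for ilys-5 (adjusted p = 0.723), 0.00 ± 0.17 for col-135 (adjusted p = 0.999) and -0.22 ± 0.17 for cyp-35A2 (adjusted p = 0.656).

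Since ent-1 was the only opposite call higher in daf-2(e1370), 5 further genes with a positive e1370 effect and a negative glp-1 estimate were taken by the size of the difference. The largest belonged to lipl-1, a lysosomal acid lipase gene at V:12919991-12921674. It stood at 22.9, 29.5, 37.4, 42.5 and 23.5 CPM in daf-2(e1370), at 0.507 to 0.715 CPM in the mg54 double and at 0.889 to 2.01 CPM in the mu86 double. In glp-1(e2141) it stood at 2, 7.95, 5.35, 5.5 and 4.25 CPM, in the mg54 double at 12.9, 11.8, 2.66, 10.8 and 9.5 CPM and in the mu86 double at 4.04, 10.5, 7.4, 3.58 and 8.55 CPM. The groups stood apart in the receptor background and overlapped in the germline background. Its e1370 effect was 5.15 ± 0.31 (adjusted p = 1.34e-13), its glp-1 effect -0.69 ± 0.30 (adjusted p = 0.233) and its difference 5.84 ± 0.46 (adjusted p = 4.96e-10). The doubles of glp-1 held more lipl-1 mRNA than the doubles of daf-2(e1370), so the levels differed between the backgrounds also where daf-16 was mutated.

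F57H12.6 and bath-47, which encodes a protein with BTB and MATH domains, showed a like arrangement, with the doubles of daf-2(e1370) low and all glp-1 strains at similar levels. F57H12.6 stood at 5.83 to 16.9 CPM in daf-2(e1370), 0.365 to 1.79 CPM over its 10 doubles and 5.53 to 23.7 CPM over the 15 glp-1 strain libraries, with a difference of 3.98 ± 0.56 (adjusted p = 1.32e-05). For bath-47 the effects were 3.30 ± 0.32 and -0.14 ± 0.30 and the difference 3.44 ± 0.46 (adjusted p = 6.77e-06). ugt-18, a UDP-glucuronosyltransferase gene, had effects of 3.56 ± 0.42 and -1.08 ± 0.48 and a difference of 4.64 ± 0.65 (adjusted p = 1.24e-05), on 0 to 25 fragments in the glp-1 strain libraries. The collagen gene bli-2, known for its blister mutants, had a glp-1 effect of -1.40 ± 0.65. Its difference of 3.50 ± 0.95 (adjusted p = 0.0242) was lost in 6 of 43 other settings, among them without the 4 low-sperm doubles and without daf-2(e1370) replicate 3 or glp-1(e2141) replicate 1.

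The lysosomal lipases divided among themselves. Of 8 members 4 were tested, and 2 had no entry of their own. Among the 4 tested, 3 passed as higher in daf-2(e1370) and 3 in glp-1, and 2 had a more positive difference. Over all entries these shares were 12.6%, 3.01% and 3.92%. lipl-2 was raised in both, by 5.37 ± 0.37 and 1.33 ± 0.32 (the latter 0.88, adjusted p = 0.144, without glp-1(e2141) replicate 0), with a difference of 4.04 ± 0.52 (adjusted p = 4.71e-06). lipl-4 is needed for the long life of germline-less animals. It was raised by 1.73 ± 0.25 in daf-2(e1370) and 1.95 ± 0.26 in glp-1, and its difference of -0.22 ± 0.36 did not pass (adjusted p = 0.807). Over 43 other settings that difference ran from -0.99 to 0.55 and passed in none. lipl-4 was scarce in all strains, at 3.81, 1.47 and 1.01 CPM in daf-2(e1370) and its mg54 and mu86 doubles and 2.51, 0.447 and 0.928 CPM in glp-1(e2141) and its doubles. The lower double was thus mu86 in daf-2(e1370) and mg54 in glp-1. lipl-5 passed in glp-1, at 0.48 ± 0.11 (adjusted p = 0.00668), and not in daf-2(e1370), at 0.28 ± 0.11 (adjusted p = 0.0665), and its difference of -0.20 ± 0.16 did not pass (adjusted p = 0.557).

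Genes raised in both single mutants, but more in daf-2(e1370), included well-known DAF-16 targets. sod-3, the mitochondrial manganese superoxide dismutase gene, stood at 45.7, 44.8, 43.2, 74.4 and 48.4 CPM in daf-2(e1370) and at 0.339 to 5.01 CPM over its 10 doubles. In glp-1(e2141) it stood at 33.4, 32.4, 18, 21.9 and 20 CPM, against 3.06 to 6.45 CPM over the 10 doubles. Single mutants and doubles did not overlap in either background, with effects of 4.72 ± 0.24 and 2.46 ± 0.22 and a difference of 2.25 ± 0.34 (adjusted p = 3.02e-05). With the mg54 doubles alone the difference was 1.30 and did not pass (adjusted p = 0.0622). The metallothionein gene mtl-1 was raised by 6.50 ± 0.42 and 3.97 ± 0.36, with a difference of 2.53 ± 0.56 (adjusted p = 0.00454).

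Of this kind the rule for named genes gives H39E23.3, sdz-24, Y9C9A.16 and T12D8.5, whose daf-2(e1370) doubles held at most 14 fragments per library. Such entries can pass the filter on low counts through the single mutant, so their direction there is a description. H39E23.3 (V:14107796-14110036) stood at 198, 231, 226, 169 and 181 CPM in daf-2(e1370), with 465 to 5246 fragments per library, and its 10 doubles held 0 to 4 fragments each. In glp-1(e2141) it stood at 4.19, 0.634, 1.21, 1.19 and 2.01 CPM, with 11 to 67 fragments, against 0 to 5 in the doubles. The gene was thus nearly undetected in all 4 double mutants, and its level with daf-16 intact was higher in daf-2(e1370) than in glp-1(e2141), with a difference of 7.20 ± 0.96 (adjusted p = 6.41e-06). The gene sdz-24 had a difference of 5.64 ± 0.43 (adjusted p = 3.28e-10), and Y9C9A.16 one of 5.42 ± 0.80 (adjusted p = 3e-05). T12D8.5 was at 0 in all 10 doubles of daf-2(e1370), with 23 to 805 fragments in the single mutant, so no fold is given. Its glp-1 libraries held 372 to 1228 fragments, and those of the doubles 0 to 469, so the groups overlapped there. With the mu86 doubles alone its difference did not pass (adjusted p = 0.0676). T12D8.5 was also at 0 in every wild-type library and in every library of the daf-2(e1368) doubles. Whether these zeros are levels or failed estimates cannot be told apart.

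Among the genes lowered in both and more in daf-2(e1370), the rule names F55G11.2, oac-20, ZK616.1 and F08G5.6. F55G11.2, a gene with a CUB-like domain that is known to respond to bacterial infection, held 0 to 11 fragments per library in daf-2(e1370), at most 0.359 CPM, against 4.6 to 12.9 CPM over the 10 doubles. In glp-1(e2141) it stood at 23.2, 23.6, 24.9, 25.9 and 31.8 CPM, below all 10 doubles at 39.6 to 65.9 CPM. Its effects were -5.46 ± 0.34 and -0.99 ± 0.20 and its difference -4.47 ± 0.39 (adjusted p = 4.44e-09). The acyltransferase-like gene oac-20 stood at 0.485 to 0.848 CPM in daf-2(e1370) and 11.4 to 15.6 CPM in its doubles, and at 38.1 to 69.6 CPM in glp-1(e2141) against 62.5 to 197 CPM in the doubles, where the groups overlapped and the effect did not pass against mu86 alone (-0.60, adjusted p = 0.13). Its difference was -3.41 ± 0.31 (adjusted p = 1.25e-08). ZK616.1 and F08G5.6, another CUB-like gene, had differences of -2.45 ± 0.30 (adjusted p = 1.59e-06) and -1.98 ± 0.24 (adjusted p = 1.04e-06). ZK616.1 held 0 to 10 fragments per daf-2(e1370) library and F08G5.6 8 to 100. Genes this scarce in daf-2(e1370) can pass the filter on low counts there through the doubles, so their direction there is a description.

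The largest class of differences was that of genes in which the e1370 effect alone passed. lea-1, which encodes a late-embryogenesis-abundant protein linked to desiccation tolerance, stood at 1801, 2281, 2897, 2081 and 2301 CPM in daf-2(e1370) and at 205 to 272 CPM over its 10 doubles. In glp-1(e2141) it stood at 311, 324, 369, 255 and 264 CPM, within the range of its doubles at 227 to 342 CPM except for the library at 369. The rise of 3.19 ± 0.11 (adjusted p = 8.46e-20) in daf-2(e1370) met an effect of 0.13 ± 0.11 (adjusted p = 0.659) in glp-1. The difference was 3.06 ± 0.16 (adjusted p = 3.3e-14). sodh-1, an alcohol dehydrogenase gene, stood at 153, 112, 189, 317 and 194 CPM in daf-2(e1370), at 1.6 to 14.6 CPM over its doubles, and at 11.7 to 72.7 CPM over the 15 glp-1 strain libraries. Its difference was 4.29 ± 0.56 (adjusted p = 5.76e-06). It shares the deposited span V:11888222-11891237 with its paralog sodh-2, so the division of reads between them is uncertain. In daf-2(e1368) the daf-16 effect on lea-1 was 2.79 ± 0.10 (adjusted p = 3.57e-28). That on sodh-1 was 0.98 ± 0.35 and did not pass (adjusted p = 0.0976). A gene that stood apart in daf-2(e1370) thus did not always pass in daf-2(e1368).

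The C-type lectin gene clec-60, the F-box gene fbxa-162 and T26H5.9 completed the upper end of this class by the rule for named genes. Their differences were 5.85 ± 0.60 (adjusted p = 7.08e-08), 4.34 ± 0.73 (adjusted p = 0.000162) and 4.02 ± 0.52 (adjusted p = 4.47e-06), and their 10 doubles of daf-2(e1370) held 0 to 4 fragments each. Entries this scarce in the doubles can pass the filter on low counts through the single mutant, so their direction there is a description. On the lower side, dod-24, a CUB-like gene and a marker of the immune genes held down in daf-2 mutants, stood at 1.24, 0.398, 1.94, 0.685 and 0.767 CPM in daf-2(e1370) and at 8.03 to 35.9 CPM over its doubles. All 15 glp-1 strain libraries held more, 86.4 to 150 CPM in the single mutant and 106 to 239 CPM in the doubles, which overlapped. Its effects were -4.42 ± 0.35 and -0.54 ± 0.23 and its difference -3.88 ± 0.40 (adjusted p = 1.17e-07). nas-3 (-3.62 ± 0.99, adjusted p = 0.0251), clec-190 (-3.43 ± 0.68, adjusted p = 0.00139), aat-7 (-3.39 ± 1.00, adjusted p = 0.0397) and C06B8.2 (-3.30 ± 0.43, adjusted p = 4.47e-06) had the most negative differences that the rule admits. They were scarce genes, with 0 to 36 fragments per library in daf-2(e1370). They can pass the filter there through the doubles, so their direction there is likewise a description. The call for nas-3 was lost in 8 of 43 other settings, among them without daf-2(e1370) replicate 0 or 3, without glp-1(e2141) replicate 0 and, at -2.18 (adjusted p = 0.177), without the 8 libraries that stood apart. The call for aat-7 was lost in 18, among them without daf-2(e1370) replicate 0, 1, 3 or 4, its mg54 double replicate 2, 3 or 4, its mu86 double replicate 4, glp-1(e2141) replicate 0, 1 or 4, the mg54 double of glp-1 replicate 0 or its mu86 double replicate 1 or 4. With the mg54 doubles alone the difference of clec-190 was -2.42 and did not pass (adjusted p = 0.0867).

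**Figure D3:**
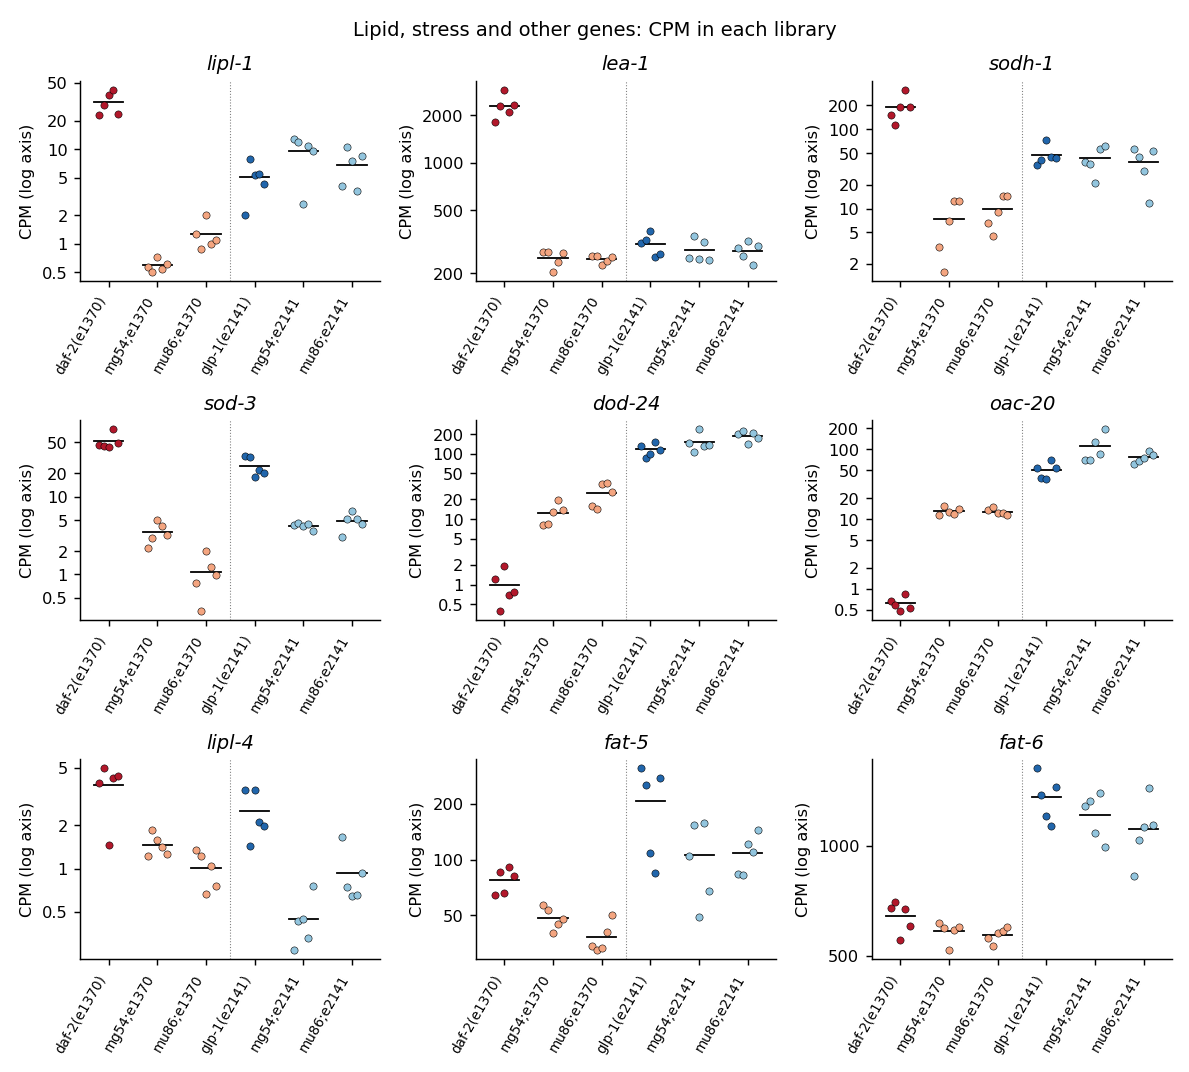
CPM on a log axis in each of the 30 libraries for 9 genes with unlike patterns, by strain, with points for libraries and bars for strain means; the dotted line divides the backgrounds. lipl-1, lea-1 and sodh-1 separate in daf-2(e1370) alone, sod-3 separates in both, dod-24 and oac-20 are lowest in daf-2(e1370), and lipl-4, fat-5 and fat-6 show no passing difference.

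Among the 30 entries in which the glp-1 effect alone passed, the rule names 4 genes, all lower in glp-1 than in its doubles. dpy-10, a cuticle collagen gene, stood at 0.188, 0.346, 0.472, 0.321 and 0.274 CPM in glp-1(e2141), at 1.17, 1.13, 0.166, 0.878 and 0.802 CPM in its mg54 double and at 1.88, 1.65, 1.1, 0.705 and 2.07 CPM in its mu86 double. Its glp-1 effect was -1.77 ± 0.35 (adjusted p = 0.00143) and its e1370 effect 0.40 ± 0.26 (adjusted p = 0.269), with a difference of 2.17 ± 0.43 (adjusted p = 0.00136), which was 1.70 (adjusted p = 0.0543) with the mg54 doubles alone. The lowest of the doubles, at 0.166 CPM, was replicate 2 of the mg54 strain, which stood apart. ZK593.9 had a difference of 1.73 ± 0.45 (adjusted p = 0.0186), which was lost in 6 of 43 settings, among them without the 4 low-sperm doubles and without daf-2(e1370) replicate 3.

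The other 2 were scarce in all glp-1 strains and abundant in strains with a germline. wago-4, which encodes a germline Argonaute protein of small RNA inheritance, stood at 119 to 322 CPM over the daf-2(e1370) strains, at 0.813, 1.96, 1.05, 0.917 and 1.05 CPM in glp-1(e2141) and at 0.651 to 4.45 CPM over its 10 doubles. Its glp-1 effect of -1.30 ± 0.32 (adjusted p = 0.0112) gave a difference of 1.43 ± 0.39 (adjusted p = 0.0254), on 12 to 89 fragments per glp-1 strain library, and the groups overlapped. T04A8.6 likewise stood at 91.5 to 119 CPM over the daf-2(e1370) strains and 1.1 to 7.1 CPM over the glp-1 strains, with a difference of 1.20 ± 0.32 (adjusted p = 0.0186). Without glp-1(e2141) replicate 4 neither difference passed (adjusted p = 0.0575 for both), and that of wago-4 was also lost without replicate 0 or 3 of glp-1(e2141) and with either allele alone. That of T04A8.6 was also lost with the mg54 doubles alone and without the 4 low-sperm doubles (1.10, adjusted p = 0.0582). Over the 26 germline and oocyte markers the summed level was 25.6 to 31.9 CPM in glp-1(e2141) and 22.6 to 56.4 CPM in its doubles, and the part of remaining germline cells in these values was not tested.

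fbxb-7, an F-box gene that was higher in glp-1, was named after its values were seen, because its e1370 effect had an unadjusted p of 0.0466 and the rule admits those above 0.05. It stood at 2.69, 1.21, 2.05, 2.34 and 1.33 CPM in glp-1(e2141), with 21 to 51 fragments, and its 10 doubles held 0 to 2 fragments each. In daf-2(e1370) it stood at 8.41, 10.9, 3.4, 6.49 and 7.24 CPM, among its doubles at 2.89 to 8.85 CPM. The daf-16 doubles were thus almost without fbxb-7 reads in the germline background and held them in the receptor background. fbxb-7 can pass the filter on low counts in the germline background through glp-1(e2141), so its direction there is a description. Its glp-1 effect was 5.42 ± 0.39 (adjusted p = 4.8e-11), its e1370 effect 0.52 ± 0.25 (adjusted p = 0.132) and its difference -4.89 ± 0.50 (adjusted p = 6.56e-08). Its deposited span, V:16966182-17732569, covers a bundle of gene models that also holds fat-5.

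The steroid, lipid and TCER-1 branches named above are known for the longevity of germline-less animals. In a list of 21 such genes tested, 1 was higher and 5 lower in daf-2(e1370) and 2 were higher in glp-1. For the difference 0 passed by edgeR, where 2 had an unadjusted p under 0.05, and 1 passed by DESeq2 and 1 by limma-voom. Over all entries 5.96% passed by edgeR, and a list of 21 is too short to set 0 apart from that share. The nuclear receptor gene daf-12 had effects of 0.18 ± 0.16 and -0.00 ± 0.16. tcer-1, a transcription elongation factor gene, was lower in daf-2(e1370), at -0.31 ± 0.10 (adjusted p = 0.0259; lost without daf-2(e1370) replicate 2 or 3 or the low-sperm doubles), and had -0.20 ± 0.10 (adjusted p = 0.364) in glp-1, with a difference of -0.12 ± 0.15 (adjusted p = 0.729). daf-36, which acts in the synthesis of DAF-12 ligands, was lower in daf-2(e1370), at -0.52 ± 0.11 (adjusted p = 0.000588), with a difference of -0.34 ± 0.15 (adjusted p = 0.21). For kri-1, nhr-49, nhr-80 and hlh-30 neither effect passed and the differences lay between -0.03 and 0.40.

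Lists of related genes were then described by how many tested members passed in each direction, beside the shares over all entries given above. Of 20 class I genes, the textbook genes raised by DAF-16 in daf-2 mutants, 16 were higher in daf-2(e1370), 13 were higher in glp-1, and 12 had a more positive difference, with median effects of 2.54 and 1.12. The list was drawn up from work on daf-2 mutants, so its direction there is not independent. aakg-4, a gamma subunit of AMP-activated kinase, was raised by 1.83 ± 0.11 and 0.75 ± 0.11 (difference 1.08 ± 0.16, adjusted p = 2.24e-05). Of 5 class II genes, those lowered in daf-2 mutants, 4 were lower in daf-2(e1370) and 3 had a more negative difference, with medians of -2.68 and -0.54. dod-23 was lowered by 2.68 ± 0.29 on the log2 scale in daf-2(e1370) and had a difference of -2.03 ± 0.37 (adjusted p = 0.000437). In 13 CUB-domain and infection-response genes, 9 were lower in daf-2(e1370) and 4 in glp-1, and 7 had a more negative difference, with medians of -2.76 and -0.65.

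Beside the 25.2% and 5.95% of all entries that passed in daf-2(e1370) and in glp-1, the metabolic and detoxification lists varied. Of 34 genes of beta-oxidation and acyl-CoA metabolism, 10 were higher and 5 lower in daf-2(e1370) and 8 were higher in glp-1, and 2 had a more positive and 1 a more negative difference. icl-1, the glyoxylate cycle enzyme gene, was raised by 2.85 ± 0.27 and 1.05 ± 0.27 (the latter lost without glp-1(e2141) replicate 0 or 2 and with the mu86 doubles alone), with a difference of 1.80 ± 0.40 (adjusted p = 0.00454, and 0.0887 with the mg54 doubles alone), and the gluconeogenic gene pck-2 by 1.17 ± 0.09 in daf-2(e1370), beside a glp-1 effect of 0.25 ± 0.10 that did not pass (adjusted p = 0.135) and a difference of 0.92 ± 0.14 (adjusted p = 3.02e-05). Of 14 fatty acid and retinol binding genes, 4 had a more positive and 0 a more negative difference by edgeR, and far-3 had 3.50 ± 0.44 (adjusted p = 3.78e-06). That split depended on scaling and tool, with 4 positive and 3 negative by RLE size factors, 4 and 4 by DESeq2 and 4 and 6 by limma-voom, and with 3 and 4 without the low-sperm doubles. In 27 glutathione S-transferase genes, 13 were higher in daf-2(e1370) against 3 in glp-1, and 5 had a more positive difference, which were 3 with 1 more negative without the low-sperm doubles. gst-20 is an example, with effects of 1.69 ± 0.13 and 0.04 ± 0.13 and a difference of 1.65 ± 0.19 (adjusted p = 7.73e-07). In 22 cytochrome P450 genes 4 differences were positive, among them cyp-37B1 at 4.41 ± 0.50 (adjusted p = 5.49e-07), and 3 were negative, cyp-35A2 among them. The 30 UDP-glucuronosyltransferase genes gave 2 differences in each direction, and 2 positive and 5 negative by DESeq2 or without the low-sperm doubles. Of 29 transthyretin-related genes, 13 were higher in daf-2(e1370) and 5 in glp-1, and 4 had a more positive difference, ttr-26 among them at 3.70 ± 0.37 (adjusted p = 4.53e-08). Without the low-sperm doubles 9 were higher and 5 lower in daf-2(e1370), with 2 differences in each direction.

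Defence against oxidants is a textbook function of DAF-16 targets. Of 18 antioxidant and metal defence genes, sod-3 and mtl-1 among them, 6 were higher and 1 lower in daf-2(e1370) and 4 were higher in glp-1, and 3 differences were positive and 1 negative. Of 42 F-box A genes, which belong to a large family of substrate adaptors for protein breakdown, 11 were higher and 3 lower in daf-2(e1370) and 3 were higher in glp-1, and 4 differences were positive and 1 negative. Autophagy, proton pump and lysosomal protease genes, 43 in number, gave 7 calls in each direction in daf-2(e1370), 3 higher in glp-1 and 3 differences in each direction. With RLE size factors these differences were 1 positive and 6 negative.

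Immune effectors moved in both directions. Among 52 C-type lectin genes, 15 were higher and 19 lower in daf-2(e1370), against 1 and 2 in glp-1, and 6 differences were positive and 8 negative. The negative ones were 13 by DESeq2, beside 6 positive, 14 by limma-voom, beside 7, and 13 without the low-sperm doubles, beside 4, where 11 were higher and 24 lower in daf-2(e1370). clec-74 held 0 to 1 fragment per daf-2(e1370) library and 26 to 52 in each of its doubles, so no fold is given. In 29 lysozyme and saposin-like genes, 10 were higher and 1 lower in daf-2(e1370) and 4 were higher in glp-1. The 1 that fell was ilys-5, and the saposin-like genes spp-2 and spp-8 had differences of 2.08 ± 0.37 (adjusted p = 0.00042) and 0.98 ± 0.11 (adjusted p = 5.45e-07). Without the 4 low-sperm doubles 7 were higher and 6 lower in daf-2(e1370). Among 11 insulin-like peptide genes, 5 were higher and 1 lower in daf-2(e1370). In glp-1, 0 passed by edgeR, where 2 had an unadjusted p under 0.05, 0 by DESeq2 and 1 by limma-voom. ins-22, a member, had a difference of 2.67 ± 0.44 (adjusted p = 0.000133).

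Cuticle collagens showed opposite medians that depended on a few libraries. Of 86 tested, 58 had opposite estimates, with a median of 0.32 in daf-2(e1370) and -0.59 in glp-1. Yet 12 were higher and 4 lower in daf-2(e1370), 2 higher and 1 lower in glp-1, and 6 differences were positive and 1, that of col-135, negative. The low-sperm doubles also held less collagen mRNA, 8038 to 16756 CPM over 148 genes against 26077 to 33938 CPM in the other replicates of those strains, and less over 19 hypodermis markers, 893 to 1692 against 2625 to 3259 CPM. Without those 4 libraries the e1370 median was -0.07, 3 collagens were higher and 10 lower in daf-2(e1370), and 2 differences were positive and 7 negative. The direction of the list's median in daf-2(e1370) thus changed with those libraries. That setting kept daf-2(e1370) replicates 0 and 1, which held 20430 and 21855 CPM of collagens against 25866 to 40875 CPM in its other replicates. Among 22 neuron markers 5 were higher in daf-2(e1370), with medians of 0.50 there and 0.07 in glp-1. In glp-1, 0 passed by edgeR, DESeq2 or limma-voom, and 0 had an unadjusted p under 0.05. Summed over the 26 neuron markers with an entry the level was 274 to 421 CPM in daf-2(e1370), 114 to 146 CPM in the low-sperm doubles and 208 to 253 CPM in the other doubles, so the single mutant lay above both. Without the 4 low-sperm doubles the e1370 median was 0.01, with 3 markers higher and 1 lower.

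The protein synthesis and degradation lists showed effects in the receptor background, the ribosomal list in glp-1 as well, and few differences. The counts changed with a few libraries. Of 59 ribosomal protein genes, 38 were lower in daf-2(e1370) and 14 in glp-1, with medians of -0.40 and -0.30. For the difference 0 passed in edgeR, DESeq2 and limma-voom, and 0 had an unadjusted p under 0.05. Without daf-2(e1370) replicate 2 the counts turned to 27 and 40. Of 19 proteasome genes, 14 were lower in daf-2(e1370). In glp-1, 0 passed in edgeR, DESeq2 and limma-voom, and 0 had an unadjusted p under 0.05. For the difference 0 passed in edgeR, where 8 had an unadjusted p under 0.05, 3 in DESeq2 and 0 in limma-voom. The count of 14 was 7 without daf-2(e1370) replicate 2, 8 without the 4 low-sperm doubles and 4 without all 8 libraries that stood apart. Of 23 respiratory chain and ATP synthase genes, 10 were lower in daf-2(e1370), with medians of -0.22 there and 0.00 in glp-1, and 1 had a more negative difference, which were 3 by RLE size factors and 6 by DESeq2. Without daf-2(e1370) replicate 2 none of the 23 passed in daf-2(e1370). The vitellogenin genes, which encode yolk proteins, gave no tested entry.

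**Figure D4:**
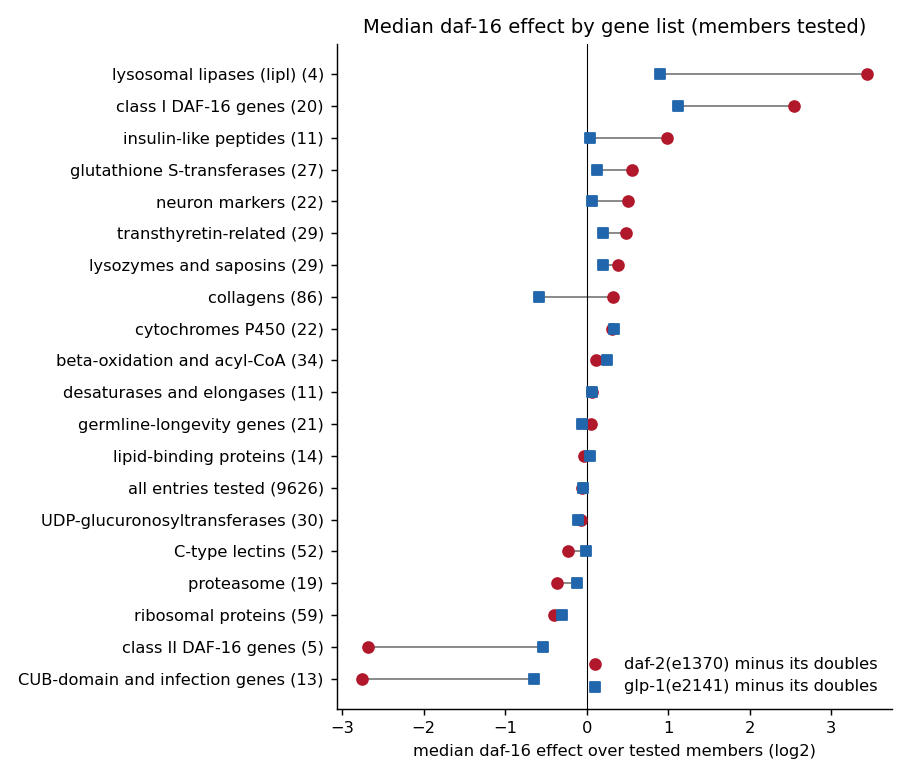
Median daf-16 effect (log2, positive where the single mutant is above its doubles) over the tested members of each list, with circles for daf-2(e1370), squares for glp-1(e2141) and the number of members in brackets. Class I genes have medians of 2.54 and 1.12, CUB-domain and infection genes -2.76 and -0.65, and collagens lie on opposite sides of 0, at 0.32 and -0.59, which does not hold without the 4 low-sperm doubles.

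Entries that passed the filter on low counts in a single background have no difference and were fitted in that background alone. Entries this scarce can pass the filter through the group in which they are high, so their direction is a description. Of 1790 such entries in the daf-2(e1370) strains, 78 were higher (4.36%) and 30 lower (1.68%) in the single mutant. Of 652 in the glp-1 strains, 7 were higher (1.07%) and 2 lower (0.307%). T02B5.1 held 26 to 414 fragments per daf-2(e1370) library and 0 to 6 in its doubles, and 8 to 65 in glp-1(e2141) against 0 to 3 in its doubles. The saposin-like gene spp-9 held 11 to 488 fragments in daf-2(e1370) and 0 to 3 in its doubles, and at most 1 in any glp-1 strain library. From the other list, dct-8 and F56D6.8 held 14 to 332 and 11 to 255 fragments in glp-1(e2141) and 0 to 14 in the doubles. In daf-2(e1370) they held 0 to 37 and 0 to 81 fragments, with at most 1 fragment in any of the doubles.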

How the data were processed

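Poly(A) RNA from whole animals was sequenced as paired ends, per the labels' protocols. The authors deposited estimated counts, fragments per gene, in 1 table, made with tools that the submitters' processing notes list without their roles or order (Bowtie2 2.1.0, TopHat2 2.0.9, Cufflinks and Cuffdiff 2.1.1, with cutadapt and FastQC 0.10.1 for the reads) on build ce10. Whether strand was used is not stated there. Of the deposited estimated counts above 0, 72.2% were whole to within 0.02. The table's 34207 rows include 314 that name no gene, which held 0.199 to 0.48% of fragments and were left out. The 849 rows that shared both name and locus were added together, giving 33458 entries. Of these, 4488 name several genes and held 25.4 to 35.2% of fragments.

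Counts were rounded and fitted in edgeR 4.0.16 (R 4.3.3) by the robust quasi-likelihood test, with TMM factors over the 30 libraries and 1 mean per strain. An entry was tested when edgeR's filterByExpr kept it in the 15 libraries of each background separately. An entry scarce in the single mutant or in the doubles can pass this filter through the group in which it is high. Its direction in that background is then a description. Loci listed at 0 in a whole strain, while another strain of the background averaged at least 1000 fragments there, were left out as not estimated (779 entries at 7 loci in the daf-2(e1370) strains, 164 at 1 locus in the glp-1 strains). This left 9626 entries, of which 7836 (81.4%) name 1 gene. An unadjusted p under 0.05 was found for 1706 differences, 3473 e1370 effects and 1588 glp-1 effects. CPM use the same TMM-scaled library sizes. The fit was also run on simulated counts with known differences, drawn independently for each library. Such counts lack the variation that real libraries share, so they cannot give the error rate in these data. Within strains, all 60 pairs of replicates differed by more than sampling noise (chi-square per degree of freedom 9.25 to 177), and no sample was counted as a duplicate.

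The genes and lists were chosen with earlier results of these data known. Named genes have entries naming 1 gene, a difference that passes also without the shallow library, and effects of the same sign for both alleles. Within each pattern of effects they were taken by the size of the difference, with the opposite calls taken by the smaller effect. Also named are a fixed set (among them sod-3, mtl-1, lea-1, dod-24, the lipases, desaturases and germline longevity genes) and up to 3 members per list with the smallest adjusted p, of which some are given and the rest counted. fbxb-7 and the akt-1 entry fall outside the rule. Alternatives were DESeq2 1.42.0, limma 3.58.1 (voom with sample weights), median-ratio size factors, other filters, all 50 libraries, each background alone, a replicate block, single alleles, the low-sperm doubles left out and each library left out. Leaving out 3 or 8 libraries that stood apart was chosen after seeing the data. Reads of paralogs and of overlapping genes could be divided in ways that cannot be seen here.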

Additional observations from a re-analysis of the deposited data

Results flagged for a closer look

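The daf-16 effect differed between daf-2(e1370) and glp-1 in 574 entries by the test of the difference. In this section each value for a gene is that difference, the effect in daf-2(e1370) minus the effect in glp-1 on the log2 scale. Of the opposite calls, the difference was -2.94 for fat-7, -1.82 for col-135, -1.50 for T15B7.1, -1.15 for cyp-35A2, -1.07 for ilys-5 and 1.13 for ent-1. The genes with a positive e1370 effect and a negative glp-1 estimate were flagged at 5.84 for lipl-1, 4.64 for ugt-18, 3.98 for F57H12.6, 3.50 for bli-2 and 3.44 for bath-47.

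Among genes raised in both single mutants the difference was 7.20 for H39E23.3, 5.64 for sdz-24, 5.42 for Y9C9A.16, 4.04 for lipl-2, 2.53 for mtl-1 and 2.25 for sod-3. Further positive differences were 5.85 for clec-60, 4.34 for fbxa-162, 4.29 for sodh-1, 4.02 for T26H5.9 and 3.06 for lea-1. From the gene lists, positive differences were 4.41 for cyp-37B1, 3.70 for ttr-26, 3.50 for far-3, 2.67 for ins-22, 2.08 for spp-2, 1.80 for icl-1, 1.65 for gst-20, 1.08 for aakg-4, 0.98 for spp-8 and 0.92 for pck-2. Where the glp-1 effect was the negative one, the difference was 2.17 for dpy-10, 1.73 for ZK593.9, 1.43 for wago-4 and 1.20 for T04A8.6. daf-16 itself had 0.97.

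The negative differences were -4.89 for fbxb-7, -4.47 for F55G11.2, -3.88 for dod-24, -3.62 for nas-3, -3.43 for clec-190, -3.41 for oac-20, -3.39 for aat-7 and -3.30 for C06B8.2. Smaller ones were -2.45 for ZK616.1, -2.03 for dod-23, -1.98 for F08G5.6 and -0.55 for the entry naming akt-1 and nhr-232.

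Of 132 strain groups of 5 libraries for the genes with printed levels, 11 (8.33%) had 1 library set off from the other 4 by Dixon's criterion, and chance flags about 1 in 20 groups. The shallow daf-2(e1370) replicate 2 was that library for wago-4 at 322 CPM, daf-16 at 289 CPM and lipl-4 at 1.46 CPM. Replicate 2 of daf-16(mg54);glp-1(e2141) and replicate 3 of daf-16(mu86);glp-1(e2141), both of which stood apart, were set off for ilys-5, at 1400 and 1520 CPM. glp-1(e2141) replicate 2 was set off for col-135 at 204 CPM and for sodh-1 at 72.7 CPM, and glp-1(e2141) replicate 1 for wago-4 at 1.96 CPM. The remaining flags were sod-3 at 74.4 CPM in daf-2(e1370) replicate 3, lipl-4 at 1.67 CPM in daf-16(mu86);glp-1(e2141) replicate 0 and fat-6 at 517 CPM in daf-16(mg54);daf-2(e1370) replicate 2.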

How the results depend on the processing

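The count of differences, 574, became 1310 with limma-voom, 900 with all 50 libraries in 1 fit, 272 with the mg54 doubles alone and 1067 without the 8 libraries that stood apart, and shared 541, 570, 267 and 496 entries with the 574. With median-ratio size factors it was 649, with DESeq2 817 and without the 4 low-sperm doubles 852, of which 408 were among the 574. The count in glp-1, 573, became 1397 with limma-voom, 910 with all 50 libraries, 331 with the mu86 doubles alone and 1287 without the 8 libraries. The count in daf-2(e1370), 2421, stayed within 1.5 times under every setting run, from 1827 with the mu86 doubles alone to 3337 with DESeq2. The 6 opposite calls became 34 with limma-voom, 12 with loci at 0 in a whole strain kept, 13 with all 50 libraries, 13 without the 3 glp-1 strain libraries and 25 without the 8; all 6 were among them except in the last case, with 5. With 1 allele alone 4 were found, of which 4 (mg54) and 3 (mu86) were shared. Leaving out each library in turn gave 433 to 707 differences, 1917 to 2555 calls in daf-2(e1370), 351 to 856 in glp-1 and 5 to 10 opposite calls. The replicate number as a block gave 958 differences, 3268 calls in daf-2(e1370), 794 in glp-1 and 12 opposite calls. Neuron markers higher in daf-2(e1370) went from 5 to 15 and positive differences of insulin-like peptides from 2 to 6. The lowest correlation of same-numbered libraries ran over the numbers from 0.00775 to 0.501 in the daf-2(e1370) strains and from -0.467 to -0.11 in the glp-1 strains. Not every pair was above 0.1 in either background, and the main fit does not pair the samples. Yet 14 of 15 libraries in the daf-2(e1370) strains correlated best with a library of their own number, against 2 of 15 in the glp-1 strains. Same-numbered libraries thus tended to go together in the daf-2(e1370) strains, which the main fit leaves out. The causes of these shifts were not tested. The shallow daf-2(e1370) replicate 2, scarce genes with few fragments in a library and loci whose deposited span holds several genes set the limits of precision.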
